A study of Mus musculus with 2 samples.

Results

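The genes described here are listed as genes of steroid hormone synthesis in the adrenal cortex. Their transcripts were measured in total RNA of embryonic mouse kidney. They are 10 of the 43346 mouse genes in the deposited tables: Star, Mc2r, Cyp11a1, Hsd3b1, Cyp21a1, Cyp11b1, Cyp17a1, Akr1b7, Fdx1 and Fdxr. They were chosen because their values differed between the 2 libraries of the study. That difference is therefore given as a description, with no test, and supports nothing by itself. The study has 1 group, kidney of B6NCrl mouse embryos at embryonic day 15.5, healthy and of mixed sex, with no treatment named in the labels. Each library comes from 1 pool of kidneys, of 78 embryos for replicate 1 and of 62 embryos for replicate 2, and was made from 10 ng of RNA. Pooling hides the spread between embryos, and 2 pools give no estimate of error beyond the gap between them.

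Steroid hormones are built from cholesterol. In the adrenal cortex, the pituitary hormone ACTH acts on its receptor, cholesterol is carried into mitochondria, its side chain is cut off to give pregnenolone, and further enzymes turn pregnenolone into progesterone, deoxycorticosterone and corticosterone, the main glucocorticoid of the mouse. The mitochondrial enzymes of this path receive electrons from ferredoxin, which is recharged by ferredoxin reductase. The adrenal gland lies on the upper pole of the kidney, and its cortex already makes steroids before birth.

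The labelled tissue was checked on 15 genes of kidney lineages, and all 15 were at 1 TPM or more in both libraries. TPM, the deposited unit, is an abundance corrected for transcript length and scaled to a fixed sum in each library. The 3 highest of the kidney genes were Tcf21, a stromal and podocyte transcription factor, Calb1, a calcium-binding protein of the collecting system, and Cited1, a marker of nephron progenitors. Tcf21 stood at 268.76 and 260.98 TPM, Calb1 at 144.72 and 120.68 TPM, and Cited1 at 127.16 and 123.87 TPM in replicates 1 and 2. The libraries held 36244861 and 39415002 expected counts in all, that is, reads shared out to features by an estimate.

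Upstream sequence of 3 of the genes is shown because these genes have unlike ratios between the pools although their products act in the same path. Hsd3b1 and Akr1b7 were more than 2-fold higher in replicate 2, and Fdx1 was not. RefSeq's promoter table for GRCm38.p6 held 5 of the 10 genes, in 6 windows of 250 bases before and 50 bases after a start: Cyp11a1 with 2 starts, Hsd3b1, Akr1b7, Fdx1 and Fdxr. The stretches lie at chr3:98859795-98860044 on the minus strand, chr6:34412112-34412333 on the plus strand and chr9:51963603-51963852 on the minus strand. They end at the RefSeq start, or before the first base of a GENCODE exon of the gene, which leaves 222 of 250 bases for Akr1b7. Capitals mark AGGTCA, or TGACCT where it lies on the opposite strand, the core of the sites that the steroidogenic factor Nr5a1 and other nuclear receptors bind.
Hsd3b1: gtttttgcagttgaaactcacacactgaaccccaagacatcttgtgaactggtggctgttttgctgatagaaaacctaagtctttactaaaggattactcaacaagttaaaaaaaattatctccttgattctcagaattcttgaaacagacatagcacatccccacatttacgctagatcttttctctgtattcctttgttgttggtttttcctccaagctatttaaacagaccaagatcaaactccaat
Akr1b7: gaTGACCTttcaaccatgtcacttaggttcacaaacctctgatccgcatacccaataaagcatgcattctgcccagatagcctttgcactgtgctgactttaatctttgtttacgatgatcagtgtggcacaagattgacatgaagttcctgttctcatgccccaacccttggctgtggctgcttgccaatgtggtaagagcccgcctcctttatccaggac
Fdx1: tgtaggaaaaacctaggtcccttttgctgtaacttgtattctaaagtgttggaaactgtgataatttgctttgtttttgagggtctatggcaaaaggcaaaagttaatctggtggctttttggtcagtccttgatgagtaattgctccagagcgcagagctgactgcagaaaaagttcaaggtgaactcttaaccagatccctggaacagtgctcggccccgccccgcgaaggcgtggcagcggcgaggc

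Of the 3 stretches, that of Akr1b7 alone holds the core, on the opposite strand at positions -248 to -243 from the RefSeq start. The first Cyp11a1 window, with chr9:57997774-57998023 before its start, holds no core and is not printed. Cyp11a1 had a ratio of 2.93 between the pools, and a link between motifs and ratios was not tested. Among the 6 windows of 300 bases, 2 hold the core, that of Akr1b7 and the second of Cyp11a1, against 16.3% of the 32851 windows in the table. In that second Cyp11a1 window all 250 bases before the start, the match included, lie in a GENCODE exon of the gene. The longer form CAAGGNCA, where N is any base, was in 0 of the 6 and in 6.71% of all windows. CAAGGTCA, one spelling of that form which also contains the core, was in 0 of the 6 and in 1.56% of all windows. The site TGACGTCA, bound by factors of the cAMP response, was in 0 of the 6 and in 1.79% of all windows, and TATAAA was in 0 of the 6 and in 13.6%. Both strands were searched for every motif. A match is a description of letters, and a window without one says nothing about a factor. G and C made up 36.4% of the Hsd3b1 stretch, 47.7% of that of Akr1b7 and 48.0% of that of Fdx1.

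A further sequence shows where reads cannot tell an adrenal enzyme from a near copy. Cyp11b1 and Cyp11b2, neighbouring genes of which the second makes aldosterone, share an unbroken run of 244 bases, coding bases 26 to 269 of Cyp11b1. It is printed in capitals with 10 coding bases on each side in lower case, from the GENCODE M21 transcript.
Cyp11b1: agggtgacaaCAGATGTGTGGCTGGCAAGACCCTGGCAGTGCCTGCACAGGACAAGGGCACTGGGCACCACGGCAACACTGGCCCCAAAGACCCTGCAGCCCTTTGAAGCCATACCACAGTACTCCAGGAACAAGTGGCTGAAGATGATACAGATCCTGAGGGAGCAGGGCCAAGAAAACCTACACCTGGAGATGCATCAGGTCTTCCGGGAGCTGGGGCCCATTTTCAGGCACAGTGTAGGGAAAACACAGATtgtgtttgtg

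The lengths in the deposited tables exceeded the effective lengths by 99 bases in both libraries, so stretches of 100 bases were used to ask which reads could fit more than 1 gene. In the leading Cyp11b1 transcript, 171 of 3066 stretches (5.58%) also occurred in Cyp11b2. In that of Cyp21a1, 115 of 1959 stretches (5.87%) also occurred in its pseudogene Cyp21a2-ps. The longest run of the Cyp21a1 coding sequence shared with it was 140 bases. The other 8 genes shared 0 such stretches with another gene of the annotation. Within coding sequences alone, longest runs were shorter between Hsd3b1 and Hsd3b6 (72 bases), Akr1b7 and Akr1b10 (59 bases) and Fdx1 and Fdx1l (10 bases).

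In both pools the genes of the early steps were present, and all 10 genes were higher in replicate 2. The ratio of TPM, replicate 2 over replicate 1, was 2 or more for 7 of the 10 genes, and for 6 of the 9 with a mean expected count of at least 100. Over the 13507 genes past that minimum, 112 reached a ratio of 2 in this direction (0.829%) and 54 in the other (0.4%), 166 in either (1.23%). At a ratio of 3 or more the counts were 4 of 9 against 35 (0.259%), and at 1.5 or more 7 of 9 against 286 (2.12%). The genes were chosen on this contrast, so nothing is read from the count. The median ratio was 2.98 over the 10 genes and 1.01 over the 13507, among which the 95th percentile of the fold in either direction was 1.37. Of the 10 genes, 9 reached the count minimum, and Cyp17a1 did not. The members nearest to the threshold of 2 were Akr1b7 above it with 2.56 and Mc2r below it with 1.56. Interval bounds given with a ratio are 95% exact Clopper-Pearson bounds on the split of counts between the libraries, and cover counting error alone. Copies of a molecule made by PCR are not marked in these reads, so reads may not be independent and the bounds may be too narrow. In whole tissue, fewer cells of a type and less RNA per cell cannot be told apart.

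**Figure D1:**
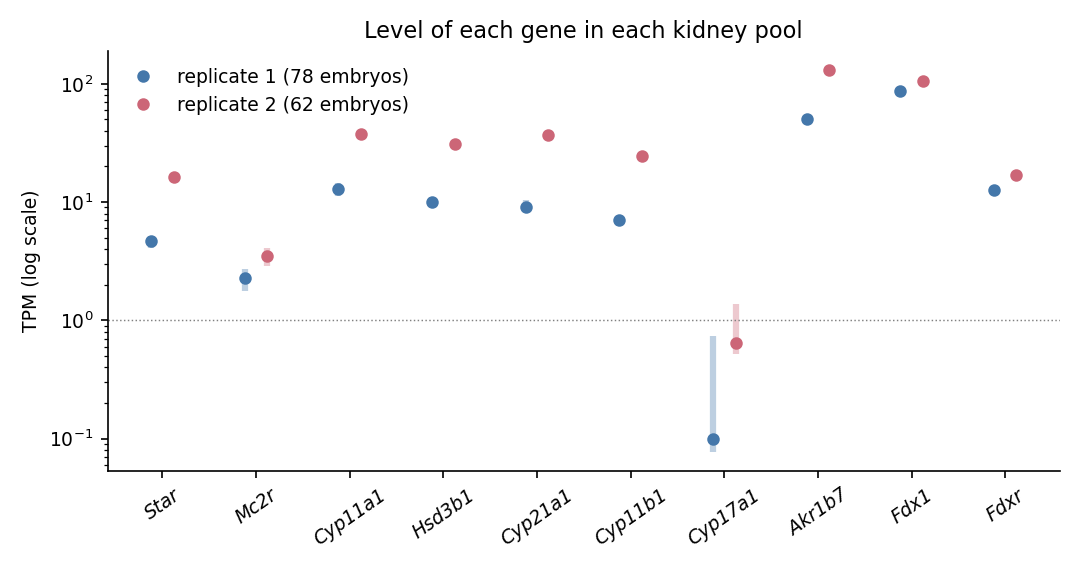
TPM of the 10 genes in the replicate 1 library (78 embryos) and the replicate 2 library (62 embryos), on a log axis, with pale bars for the quantifier's own interval of each TPM, mostly hidden by the points, and a dotted line at 1 TPM. All 10 points of replicate 2 lie above those of replicate 1, with the nearest pairs at Fdx1 (86.7 and 104.75 TPM) and Fdxr (12.65 and 16.85 TPM).

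Mc2r (ENSMUSG00000045569.6, chr18:68406907-68429320, minus strand, mm10) encodes the ACTH receptor. It stood at 2.26 TPM in replicate 1 and 3.52 TPM in replicate 2, from 81 and 136 expected counts, a mean of 2.89 ± 0.891 TPM (SD, n = 2). The ratio was 1.56 (1.17 to 2.08). Among the genes at the top of the path it was the lowest in both pools, and its ratio lay below those of all the steroid enzymes.

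Mrap, the accessory protein that carries this receptor to the cell surface, stood at 1.95 and 7.73 TPM in replicates 1 and 2. Its ratio was 3.96 (2.83 to 5.66), so its counting interval did not overlap that of Mc2r. Nr5a1, the nuclear receptor that drives many genes of this path, stood at 1.04 and 2.77 TPM, a ratio of 2.66 (2.03 to 3.53). Both belong to a list of 20 genes of ACTH and angiotensin signalling and of transcription factors of the cortex. Of the 14 genes of that list past the count minimum, these 2 had a ratio of at least 2 and 0 had the reverse, with a median of 1.03. Prkar1a and Prkaca, the highest genes of the list, are made widely and were alike in both pools. Prkar1a, a regulatory subunit of protein kinase A, stood at 294.04 and 286.58 TPM, and Prkaca, a catalytic subunit, at 131.08 and 131.09 TPM.

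Star (ENSMUSG00000031574.7, chr8:25806555-25815982, plus strand) encodes the protein that moves cholesterol to the inner mitochondrial membrane. Its TPM was 4.71 in replicate 1 and 16.43 in replicate 2, from 310 and 1165 counts, with a mean of 10.6 ± 8.29 TPM (SD, n = 2). The ratio was 3.49 (3.08 to 3.97). Replicate 2 was the higher library, and the quantifier's own intervals, 4.11 to 5.13 and 15.2 to 17.0 TPM, did not overlap.

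Upstream of Star, 16 genes of cholesterol uptake, storage, synthesis and transfer were all past the count minimum, and 0 of 16 reached a ratio of 2 in either direction. Their median ratio was 1.11. The highest were Apoe, an apolipoprotein, at 212.17 and 273.86 TPM, Hmgcs1, an enzyme of cholesterol synthesis, at 143.89 and 148.28 TPM, and Sqle, another such enzyme, at 74.08 and 82.18 TPM. These genes are active in many cell types of the kidney. Ratios in the list ran from 0.765 (Soat1, which esterifies cholesterol) to 1.43 (Scarb1, the receptor for high-density lipoprotein); both of these genes are named here after their values were seen.

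**Figure D2:**
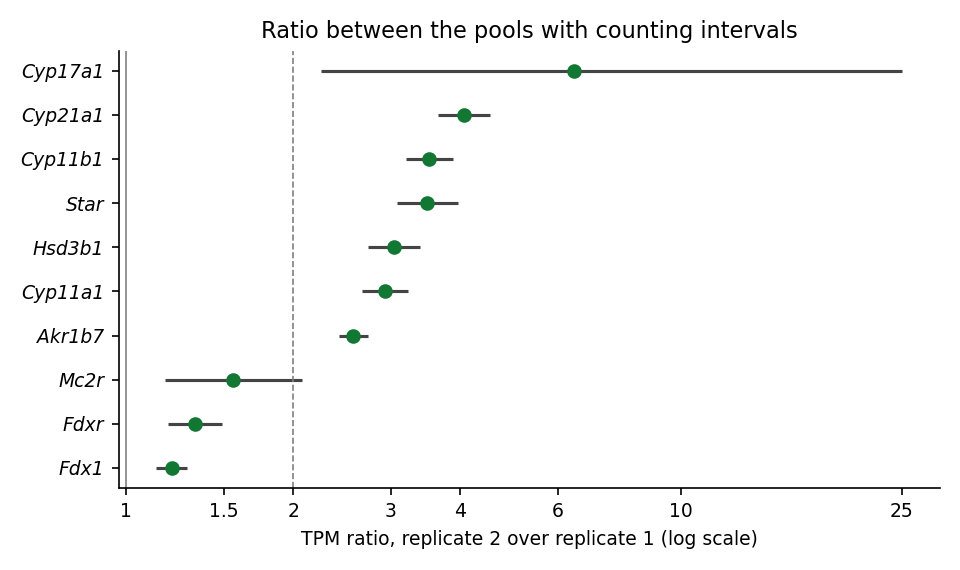
Ratio of TPM, replicate 2 over replicate 1, for each of the 10 genes on a log axis, with bars for the 95% counting interval and a dashed line at a ratio of 2. The intervals of Mc2r, Fdx1 and Fdxr overlap each other and lie below those of Star, Cyp11a1, Hsd3b1, Cyp21a1, Cyp11b1 and Akr1b7, while the Cyp17a1 bar is wide because it rests on 4 and 29 counts.

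Cyp11a1 (ENSMUSG00000032323.9, chr9:58006411-58027023, plus strand) cuts the side chain of cholesterol to give pregnenolone, the first step of every steroid hormone. It stood at 12.93 TPM in replicate 1 and 37.84 TPM in replicate 2, from 553 and 1998 counts, a mean of 25.4 ± 17.6 TPM (SD, n = 2). The ratio was 2.93 (2.66 to 3.22). Among the 5 steroid enzymes it was the highest in replicate 1, and in replicate 2 it could not be ordered against Cyp21a1, whose quantifier interval overlapped.

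Hsd3b1 (ENSMUSG00000027871.12, chr3:98852194-98859794, minus strand), the dehydrogenase that turns pregnenolone into progesterone, was at 10.11 and 30.71 TPM in replicates 1 and 2, from 434 and 1415 counts. Its mean was 20.4 ± 14.6 TPM (SD, n = 2), and the ratio was 3.04 (2.73 to 3.39). Cyp21a1 (ENSMUSG00000024365.9, chr17:34801348-34804561, minus strand), the hydroxylase that turns progesterone into deoxycorticosterone, was at 9.06 and 36.76 TPM. These came from 421.26 and 1877.98 counts, with a mean of 22.9 ± 19.6 TPM (SD, n = 2) and a ratio of 4.06 (3.65 to 4.52). Among the 9 genes past the count minimum Cyp21a1 had the highest ratio. In each of these enzymes replicate 2 was the higher library by far more than the quantifier's intervals.

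Cyp11b1 (ENSMUSG00000075604.5, chr15:74834125-74841643, minus strand) makes corticosterone in the last step of the glucocorticoid branch. It was at 7.02 and 24.67 TPM in replicates 1 and 2, from 527.1 and 1994.93 counts, with a mean of 15.8 ± 12.5 TPM (SD, n = 2) and a ratio of 3.51 (3.19 to 3.88). Its near copy Cyp11b2 was at 0.1 and 0.32 TPM, so the printed run of 244 bases is shared with a gene that received few reads. The pseudogene Cyp21a2-ps was at 0.88 and 2.95 TPM with a ratio of 3.35 (2.17 to 5.25), from 27.74 and 100.02 counts. Since it shares stretches with Cyp21a1, the share of these counts that came from Cyp21a1 RNA was not tested.

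Cyp17a1 (ENSMUSG00000003555.7, chr19:46667165-46673172, minus strand) leads toward androgens and, in many other mammals, cortisol, and is little used in the adrenal cortex of adult mice. It was near the limit of detection, at 0.1 and 0.64 TPM from 4 and 29 counts. The ratio of 6.4 had a counting interval of 2.25 to 25.1, and the quantifier's own TPM intervals, 0.0771 to 0.739 and 0.522 to 1.38, overlapped. With the authors' posterior mean TPM, the log2 ratio was 1.33 instead of 2.68. It was the only one of the 10 genes under 1 TPM in either library, and it was so in both.

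Akr1b7 (ENSMUSG00000052131.7, chr6:34412334-34423142, plus strand) encodes an aldo-keto reductase that clears the aldehyde left by side-chain cleavage; it is also known from renin-producing cells of the kidney. Its TPM was 50.68 in replicate 1 and 129.96 in replicate 2, from 1467 and 4050.99 counts, with a mean of 90.3 ± 56.1 TPM (SD, n = 2). The ratio was 2.56 (2.42 to 2.72). In TPM its gap between the pools, 79.3, was wider than that of any of the other 9 genes. It reached 392% of the Cyp11a1 level in replicate 1 and 343% in replicate 2.

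Fdx1 (ENSMUSG00000032051.8, chr9:51943306-51963556, minus strand) encodes ferredoxin, which hands electrons to mitochondrial P450 enzymes. It was at 86.7 and 104.75 TPM in replicates 1 and 2, from 1618 and 2105 counts, a mean of 95.7 ± 12.8 TPM (SD, n = 2). The ratio was 1.21 (1.13 to 1.29), the lowest of the 10 and within the 1.37-fold that 95% of all genes kept to. When counts were scaled to the ERCC spike-ins instead, the log2 ratio of Fdx1 was -0.09 in place of 0.27. That scaling moved the median of all genes by -0.36 on the log2 scale, and relative to the median Fdx1 stood 0.25 higher under both scalings.

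Fdxr (ENSMUSG00000018861.4, chr11:115268024-115277050, minus strand), the reductase that recharges ferredoxin, was at 12.65 and 16.85 TPM in replicates 1 and 2, from 543 and 759 counts. Its mean was 14.8 ± 2.97 TPM (SD, n = 2), and the ratio was 1.33 (1.19 to 1.49), or a log2 ratio of 0.01 with the spike-ins against 0.41. These redox partners also serve mitochondrial enzymes outside the adrenal gland. In a list of 3 such enzymes, those of vitamin D and bile acid metabolism, 3 of 3 were detected in both pools and 0 of 3 reached a ratio of 2, with a median of 0.947. Cyp27b1, which activates vitamin D in kidney, was at 10.05 and 8.04 TPM, Cyp27a1, a bile acid and vitamin D enzyme, at 6.22 and 5.89 TPM, and Cyp24a1, which breaks down active vitamin D, at 1.42 and 1.44 TPM.

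The order of levels differed between the pools. In replicate 1 it ran, from high to low, Fdx1, Akr1b7, Cyp11a1, Fdxr, Hsd3b1, Cyp21a1, Cyp11b1, Star, Mc2r and Cyp17a1. The quantifier's intervals of neighbours overlapped for Cyp11a1 with Fdxr and for Hsd3b1 with Cyp21a1, so these neighbours could not be ordered. In replicate 2 the order was Akr1b7, Fdx1, Cyp11a1, Cyp21a1, Hsd3b1, Cyp11b1, Fdxr, Star, Mc2r and Cyp17a1, and the overlapping neighbours were Cyp11a1 with Cyp21a1 and Fdxr with Star. The steroid enzymes thus took the places above Fdxr in replicate 2 that they did not hold in replicate 1, apart from Cyp11a1, which could not be ordered against Fdxr there, and Cyp17a1, which was last in both.

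Set against Cyp11a1 in the same library, the scaling between libraries drops out. Hsd3b1 was at 78.2% of the Cyp11a1 level in replicate 1 and 81.2% in replicate 2. Star was at 36.4% and 43.4%, Cyp11b1 at 54.3% and 65.2%, and Cyp21a1 at 70.1% and 97.1%. Of these 4 genes, Cyp21a1 alone had a ratio between the pools whose counting interval was apart from that of Cyp11a1, so for the other 3 no shift in proportion could be told. The Cyp21a1 interval, 3.65 to 4.52, still held the ratio of 3.67 of the full-length Cyp11a1 transcript given below. Counting intervals leave out error in sharing reads among transcripts, so the Cyp21a1 shift is not firm either. For Hsd3b1 the direction also turned with edgeR's TMM scaling of counts, where its log2 ratio was 1.57 against 1.72 for Cyp11a1. Proportions were lower in replicate 2, with intervals apart, for the next 3 genes. Fdx1 was at 671% and 277%, Fdxr at 97.8% and 44.5%, and Mc2r at 17.5% and 9.30%. Among the 36 pairs of the 9 genes past the count minimum, the counting intervals of the ratio were apart in 24. The same share over pairs of all genes was not computed, so nothing is read from this count. Star overlapped Cyp11a1, Hsd3b1, Cyp21a1 and Cyp11b1. Mc2r, Fdx1 and Fdxr overlapped each other and none of the other 6. All intervals leave out any variation between pools, and these pairs share the same 2 libraries.

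**Figure D3:**
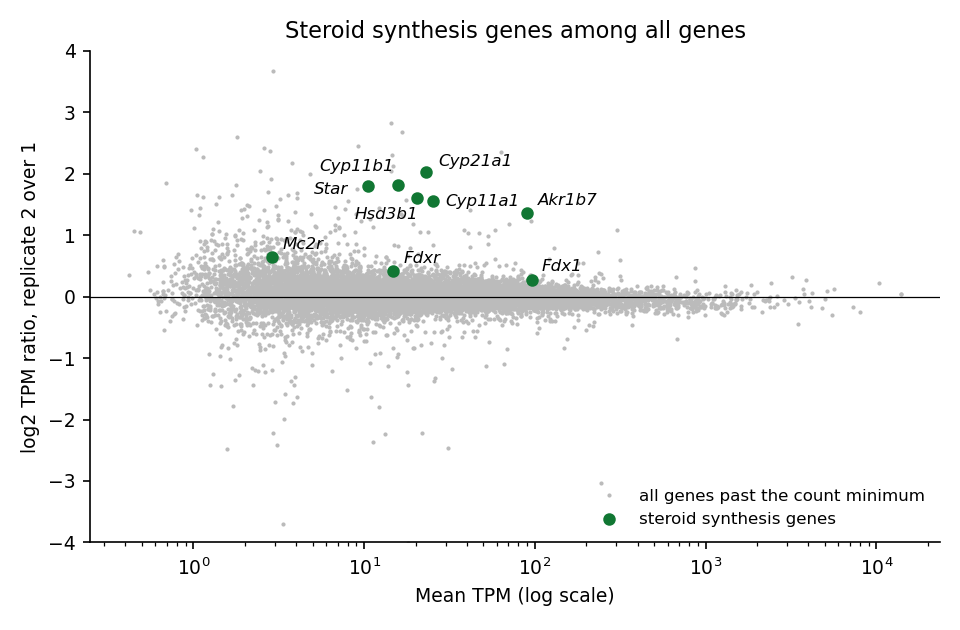
Ratio of TPM (replicate 2 over replicate 1, log2 axis) against mean TPM (log axis) for the 13507 genes with a mean expected count of at least 100, with 9 of the 10 genes marked; 7 genes lie outside the drawn axis. The median of all genes is a ratio of 1.01, Fdx1 and Fdxr lie close to the cloud of all genes, and Cyp21a1 is the highest of the marked genes at 4.06.

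Transcript models add a further difference inside Cyp11a1. Its full-length transcript Cyp11a1-201, of 2120 bases in 9 exons, was at 9.89 TPM in replicate 1 and 36.29 TPM in replicate 2, a ratio of 3.67. A short model, Cyp11a1-203, of 848 bases in 5 exons, was at 2.92 and 0.88 TPM. The short one was thus assigned 22.6% of the gene's transcripts in replicate 1 and 2.31% in replicate 2, and the full-length one 76.5% and 95.9%. The short model's counts were few, 53.61 and 17.3, and the quantifier's TPM intervals, 1.03 to 5.03 and 0.0476 to 2.83, overlapped. Scaled from counts rather than transcript levels, the whole gene had a log2 ratio of 1.72 with edgeR's TMM factors, against 1.55 in TPM.

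Both forms join the same exon, chr9:58018194-58018393, to different upstream exons, and the 30 bases over each junction are shown to let the forms be told apart. The capitals are the shared exon, and the lower case is the end of exon 2 of the full-length form (chr9:58016274-58016429) or of exon 1 of the short form (chr9:58017396-58017515). All of these bases lie in the annotated coding sequence of their model.
Full-length: tggggtcctgtttaaGAGTTCAGATGCCTG
Short: aactgagtggagaagGAGTTCAGATGCCTG

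A retained-intron model, Cyp11a1-204, was at 0.12 and 0.51 TPM, and Cyp11a1-202 was listed at 0 and 0.17 TPM. In 5 of the 10 genes only 1 transcript was in the tables (Star, Mc2r, Cyp11b1, Akr1b7 and Fdx1). In the remaining genes the leading transcript held most of the gene in both libraries by the authors' estimate. Its share was 100% and 99.4% for Hsd3b1-202, 96.3% and 98.5% for Cyp21a1-201, and 92.0% and 87.7% for Fdxr-201. Cyp17a1-201 had 100% in both, although its posterior mean share averaged only 47.6%, so its transcripts could not be resolved at this depth.

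**Figure D4:**
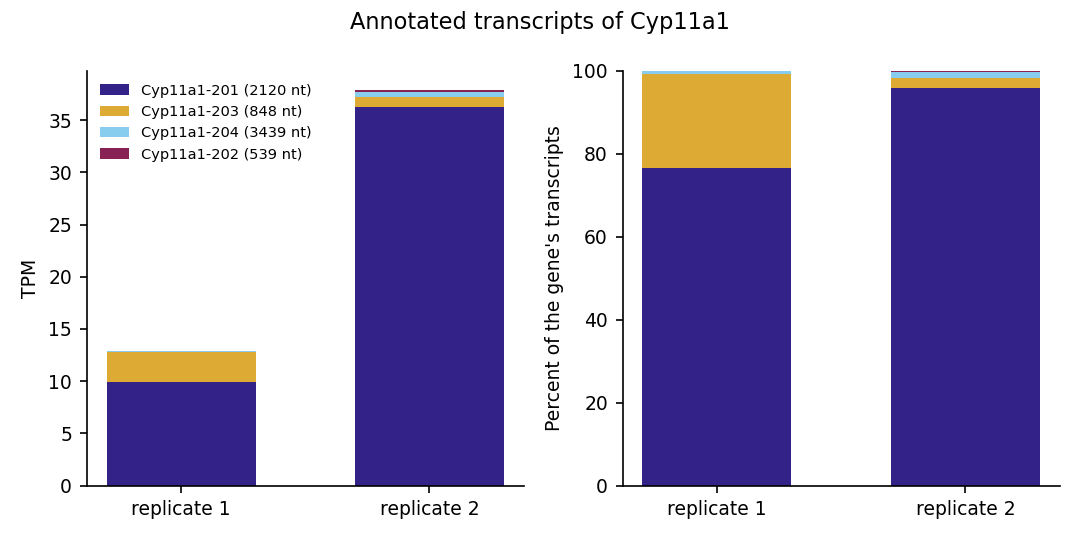
Stacked bars of the 4 Cyp11a1 transcript models in the replicate 1 and replicate 2 libraries, in TPM on the left and as the percent of the gene's transcripts on the right, with no error bars. Cyp11a1-201 is at 9.89 and 36.29 TPM and Cyp11a1-203 at 2.92 and 0.88 TPM, so the share of the latter is 22.6% and 2.31%.

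The remaining steroid enzymes and their electron donors formed a list of 24 genes, of which 23 were matched and 10 passed the count minimum. Of these, 0 of 10 reached a ratio of 2 in either direction, and the median was 1.02. The highest were Cyb5a, a cytochrome b that aids steroid enzymes, at 321.79 and 327.89 TPM, Cyb5b, its mitochondrial relative, at 109.86 and 106.29 TPM, and Hsd17b12, an enzyme mainly of fatty acid elongation, at 108.63 and 106.26 TPM. Cyp19a1, the aromatase that makes oestrogens, and Hsd17b3, which makes testosterone in testis, were listed at 0 in both libraries. The summed level of the list was 756 TPM in replicate 1 and 768 TPM in replicate 2.

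Close relatives of the 10 genes were looked at as another family comparison, with 16 genes in the list. Past the count minimum were 6 of 16, of which 0 reached a ratio of 2, with a median of 1.06. Hsd3b4, known as a kidney form of the dehydrogenase, was at 26.94 and 32.86 TPM, and Hsd3b7, which acts in bile acid synthesis, at 19.9 and 23.52 TPM. Hsd3b6 was at 2.12 and 1.21 TPM, Hsd3b3 at 1.01 and 0.61 TPM, Hsd3b2 at 0.1 and 0.04 TPM, and Hsd3b5 was listed at 0 in both. The ratios of Hsd3b4 and Hsd3b7 were 1.22 and 1.18, beside 3.04 for Hsd3b1, and the other 4 were too low for the count minimum.

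The aldo-keto relatives of Akr1b7 had ratios from 0.946 to 1.05, with Akr1b3, the aldose reductase of kidney, at 157.72 and 149.22 TPM, Akr1b10 at 23.63 and 24.23 TPM, and Akr1b8 at 10.8 and 11.38 TPM. Fdx1l, the ferredoxin of iron-sulphur cluster assembly, was at 43.22 and 45.97 TPM. Stard6, a relative of Star, was at 1.57 and 1.18 TPM. Of the other melanocortin receptors, Mc4r was at 0.21 and 0.27 TPM, Mc5r at 0.23 and 0.04 TPM, Mc1r at 0 and 0.02 TPM, and Mc3r was listed at 0 in both. Mc2r was the only receptor of this family above 1 TPM in either library.

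Genes of other tissues next to the kidney also differed between the pools, and their part in the difference of the steroid genes was not tested. Of 12 genes of the adrenal medulla, the chromaffin tissue inside the cortex, 8 passed the count minimum, 6 of 8 had a ratio of at least 2 and 0 the reverse, with a median of 3.81. Their summed level was 63.8 TPM in replicate 1 and 188 TPM in replicate 2, and none was at 0 in both. Th, the rate-limiting enzyme of catecholamine synthesis, was at 4.48 and 28.71 TPM, a ratio of 6.41. Chgb, a protein of secretory granules, was at 3.56 and 25.1 TPM, a ratio of 7.05. Dbh, which makes noradrenaline, was at 2.85 and 15.5 TPM, and Chga, another granule protein, at 4.86 and 24.12 TPM. Replicate 2 was the higher library for each of these 4 genes of catecholamine storage and synthesis. Npy, a neuropeptide, was at 22.91 and 60.98 TPM. Pnmt, which makes adrenaline, was at 2.24 and 3.06 TPM, and Ddc, an enzyme of the same path that kidney tubules also make, at 12.7 and 11.7 TPM; both are named after their values were seen.

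Of 7 genes of the adrenal capsule and its progenitors, 6 passed the count minimum and 0 reached a ratio of 2, with a median of 1.00. Their summed level was 521 and 559 TPM, of which Tcf21, also a kidney gene, Nr2f2, a stromal nuclear receptor at 131.61 and 125.82 TPM, and Dlk1, a progenitor marker at 96.28 and 146.81 TPM, were the highest. Dlk1 also had the highest ratio of the 6, 1.52 (1.46 to 1.59). How much of the RNA of this list came from kidney cells was not tested. No gene of that list was at 0 in both libraries. Of 13 genes of gonad, Leydig and germ cells, 1 passed the count minimum, the inhibin subunit Inha at 4.93 and 9.07 TPM, a ratio of 1.84. Adrenal cortex expresses Inha too. The gonad list summed to 9.83 and 14.7 TPM, and Fshr, Hsd17b3 and Sry were listed at 0 in both.

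Liver genes were higher in replicate 2 as well: 8 of 8 passed the count minimum, 4 had a ratio of at least 2 (Trf, Alb, Apoa1 and Apoa2) and 0 the reverse, with a median of 1.93 and a sum of 263 and 517 TPM. Trf, the iron carrier transferrin, was at 56.53 and 133.29 TPM, Apoa2, an apolipoprotein, at 37.24 and 78.93 TPM, and Afp, a protein of fetal liver and the highest of the list, at 94.32 and 163.89 TPM. Of 8 genes of nerve and glia, 5 passed the count minimum and 2 had a ratio of at least 2, with sums of 56.3 and 85.5 TPM: Stmn2, at 11.9 and 26.93 TPM, and Tubb3, at 6.53 and 17.79 TPM, both of neuronal microtubules. Skeletal muscle went the other way: 8 of 8 passed, 2 were lower at least 2-fold in replicate 2 (Myh8, a developmental myosin, and Ckm, muscle creatine kinase), 0 were higher, the median was 0.581 and the sums were 503 and 288 TPM. Myh8 was at 16.67 and 5.37 TPM and Ckm at 37.01 and 14.28 TPM. In the 15 kidney genes 0 reached a ratio of 2 in either direction, the median was 1.02 and the sums were 1022 and 997 TPM. No gene of these 4 lists was at 0 in both libraries, and the part of any of them in the steroid gene values was not tested.

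**Figure D5:**
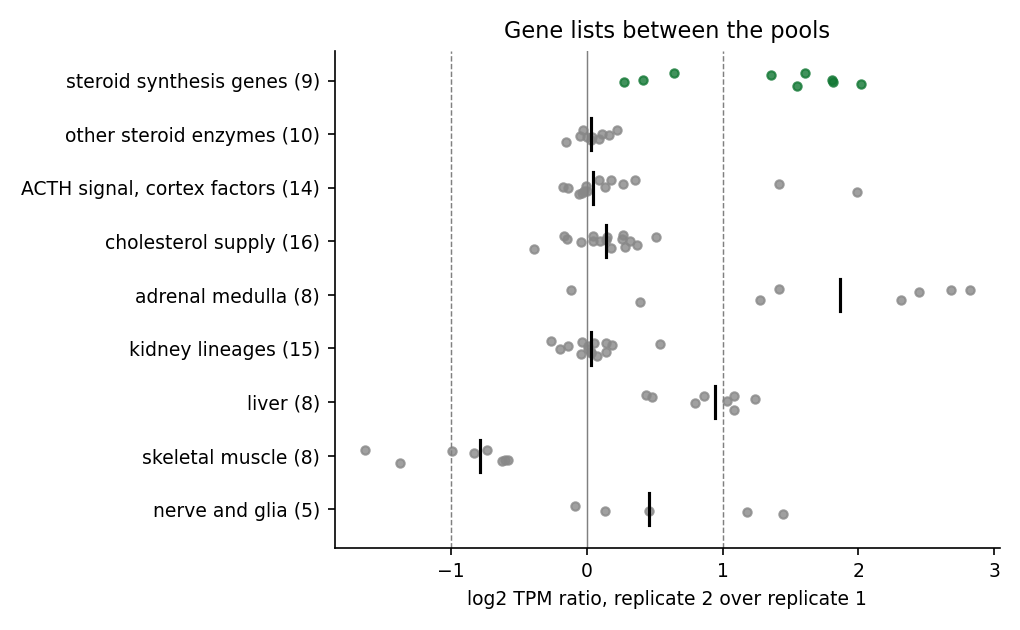
Log2 ratio of TPM (replicate 2 over replicate 1) of every gene past the count minimum in the steroid genes and 8 other lists, 1 point a gene, with short bars for the median of each other list and dashed lines at a 2-fold difference. To the right of the line of no difference lie 7 of 8 genes of the adrenal medulla (median 3.81), all but Ddc, and 8 of 8 liver genes (1.93), with 8 of 8 muscle genes (0.581) to the left and kidney genes (1.02) near it, the medians being given as plain ratios.

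The ratio of Cyp11a1 was also compared with that of protein-coding genes outside all lists. The 5 nearest on the log2 scale were Krt15, a keratin of stratified epithelium, at 4.11 and 12.05 TPM, Ahsg, a plasma protein of liver, at 8.85 and 26.36 TPM, Gfra3, a receptor of sensory and sympathetic neurons, at 1.62 and 4.85 TPM, Psd, at 0.71 and 2.02 TPM, and Krt4, another keratin, at 2.01 and 6.08 TPM. Their ratios ran from 2.85 (Psd) to 3.02 (Krt4). This likeness is over 2 libraries only and follows from 1 ratio per gene. The log2 ratios of these genes lay within 0.048 of that of Cyp11a1, which was 1.55 in TPM and 1.72 with edgeR's TMM factors. Which genes are nearest may therefore depend on the scaling.

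Annotated genes that overlap the 10 were low. Gm17322, on the same strand as Cyp11a1, was at 0.37 and 0.38 TPM, and Gm13857, opposite Akr1b7, at 0.17 and 0.7 TPM. Tnxa, opposite Cyp21a1, and Gml2, opposite Cyp11b1, were listed at 0 in both libraries. No source used here says whether the counting used strand, and reads of overlapping genes on opposite strands may not be separated.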

How the data were processed

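Total RNA of 2 kidney pools was sequenced, 1 library each, from mirVana extracts, per the labels. Reads were aligned to mm10 and quantified with GENCODE M4, per the text files deposited beside the tables. For the aligner, the quantifier, their versions and the strand setting: not given in the sources used here. The deposited expected counts are the authors' estimated reads per gene or transcript. The deposited TPM and FPKM values are scaled for length and library by the authors. The transcript shares in percent and the TPM interval bounds are the authors' own, per the file headers, and the files do not state the level of those bounds.

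Identifiers were matched to GENCODE M21, also on mm10, for symbols and positions (42462 genes, 98.0%). Sts was not matched. Each gene's TPM ratio was taken without a pseudocount. Its counting interval is the Clopper-Pearson bound (scipy 1.17.1) on the split of rounded counts, rescaled to TPM. A ratio of 2 and a mean expected count of 100 were the thresholds. The calculation was tested on simulated data. edgeR 4.0.16 and DESeq2 1.42.0 gave alternative scaling factors only. Without a second group and with 1 library a pool, no p was computed. The labels call the libraries biological replicates.

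The members and lists were chosen with earlier results of these data known. Named are all 10 members, the 3 highest of each list (for tissues other than kidney and adrenal, only some), genes past the count minimum with a ratio of at least 2, genes at 0 in both libraries, all close relatives, and the 5 genes nearest to Cyp11a1 in ratio. The values of some genes under this rule are not reported here. Protein sequences were not used here.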

Additional observations from a re-analysis of the deposited data

How the results depend on the processing

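The count of members with a ratio of at least 2 was 7, and it was 6 with counts scaled to the ERCC spike-ins, 5 at a ratio of 3 and 8 at a ratio of 1.5. No member's direction changed under the 6 other scalings, apart from Fdx1 with the spike-ins (log2 ratio -0.09). The median log2 ratio of the 10 members was 1.58, and 1.31 with the spike-ins, which held 2.60% and 3.33% of counts in replicates 1 and 2. All 10 members stood above the median of all genes under each of the 7 scalings. The members were chosen on this contrast, and a constant factor per library moves all genes alike, so nothing is read from this count. Over all genes, 112 were higher by at least 2 in replicate 2 and 54 lower. With the spike-ins these were 49 and 106, at a ratio of 3 they were 35 and 24, at 1.5 they were 286 and 139, at a mean count of 20 they were 364 and 214, and with no count filter they were 431 and 393. The last 2 settings let more genes in. The spike-in scaling moved the median of all genes by -0.36 on the log2 scale and left values relative to it as they were with TMM factors. Among single genes, Cyp17a1 had a log2 ratio of 0.58 with a pseudocount of 1, and its posterior mean gave 1.33. With 81 and 136 counts for Mc2r and 4 and 29 for Cyp17a1, depth limits these most. No paired analysis was possible because there is 1 group.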
